A study of Mus musculus with 16 samples.

Results

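The nuclear-encoded subunits of the oxidative phosphorylation machinery were examined in the CA1 subfield of the mouse hippocampus. They were taken by symbol as the NADH dehydrogenase subunits of complex I (Ndufa, Ndufb, Ndufc, Ndufs and Ndufv genes), the succinate dehydrogenase genes of complex II, the Uqcr genes of complex III, the numbered Cox4 to Cox8 genes of complex IV and the Atp5 genes of ATP synthase, or complex V. This gave 83 of the 17986 genes listed in both deposited tables, with 35 genes in complex I, 4 in complex II, 8 in complex III, 19 in complex IV and 17 in complex V. Ndufa4 was counted with complex IV, to which its protein belongs, and Atp5s and Atp5sl carry the ATP synthase name without being subunits of the enzyme.

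All mice were male, on a C57Bl6 background and 3 to 6 months old, and 10 libraries from 4 groups were used. Wild type and Neil3-/- mice (N3 -/- in the labels) were taken from the home cage with no intervention (2 libraries of each) or after spatial exploration (3 libraries of each). Per the labels' protocols, trained mice spent 20 min a day for 1 week in an open field with sides of 50 cm and cues, and were killed 20 min after the final one. CA1 was cut by laser from frozen sections of 8 µm. The 8 CA1 markers read summed to between 781.8 and 972.2 FPKM in the 10 libraries, and the 10 markers of CA2, CA3 and dentate neurons to between 176.4 and 328.5 FPKM. Of the latter, Rgs14 was at 94.11 to 127.1 FPKM, Calb1 at 37.94 to 86.77 FPKM and Pcp4 at 5.05 to 112.6 FPKM. Bok was at 4.53 to 32.43 FPKM, Amigo2 at 0.9 to 16.93 FPKM and the dentate granule cell marker Prox1 at 0.18 to 0.5 FPKM. Neil3, the DNA glycosylase gene that the knockout targets, went against the labels: the 5 wild type labels went with 0 to 0.05 FPKM, and the 5 Neil3-/- labels with 8.35 to 15.22 FPKM. The groups are therefore called WT-labelled and KO-labelled, and every genotype direction below rests on those labels. The home cage and the exploration libraries stand in different deposited tables, so the environment and the table cannot be told apart. Nothing states whether each library is a separate mouse, so the p-values measure the spread between libraries. In bulk tissue, a lower share of a cell type and less RNA per cell cannot be told apart.

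Oxidative phosphorylation makes most of a neuron's ATP. Complexes I and II pass electrons from NADH and succinate to ubiquinone, complex III passes them to cytochrome c and complex IV to oxygen, and complexes I, III and IV pump protons across the inner mitochondrial membrane. ATP synthase uses the proton gradient to make ATP. A few core subunits carry the catalysis, and many small accessory subunits assemble and stabilise the complexes. The mitochondrially encoded core subunits were not analysed here.

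Values are FPKM, fragments per kilobase of transcript and per 1000000 mapped fragments, so levels of different genes can be compared per unit of length. Depth was estimated at 18400000 to 19600000 fragments per library. The members' FPKM together made up 3.710% ± 0.054 of a library's summed FPKM in WT-labelled home cage mice (SD, n = 2) and 3.870% ± 0.294 in KO-labelled home cage mice (SD, n = 2). After exploration the share was 4.362% ± 0.077 in WT-labelled (SD, n = 3) and 4.648% ± 0.213 in KO-labelled mice (SD, n = 3). The 6 exploration libraries lay between 4.274% and 4.892%, above the 4 home cage libraries at 3.662% to 4.078%. By complex, the share in WT-labelled home cage mice was 1.142% ± 0.021 for complex I, 0.1% ± 0.001 for complex II, 0.341% ± 0.008 for complex III, 1.136% ± 0.013 for complex IV and 0.990% ± 0.013 for complex V (SD, n = 2 each). In each of the 5 complexes both WT-labelled home cage libraries lay under the 3 WT-labelled exploration libraries, and both KO-labelled home cage libraries under the 3 KO-labelled exploration libraries.

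**Figure D1:**
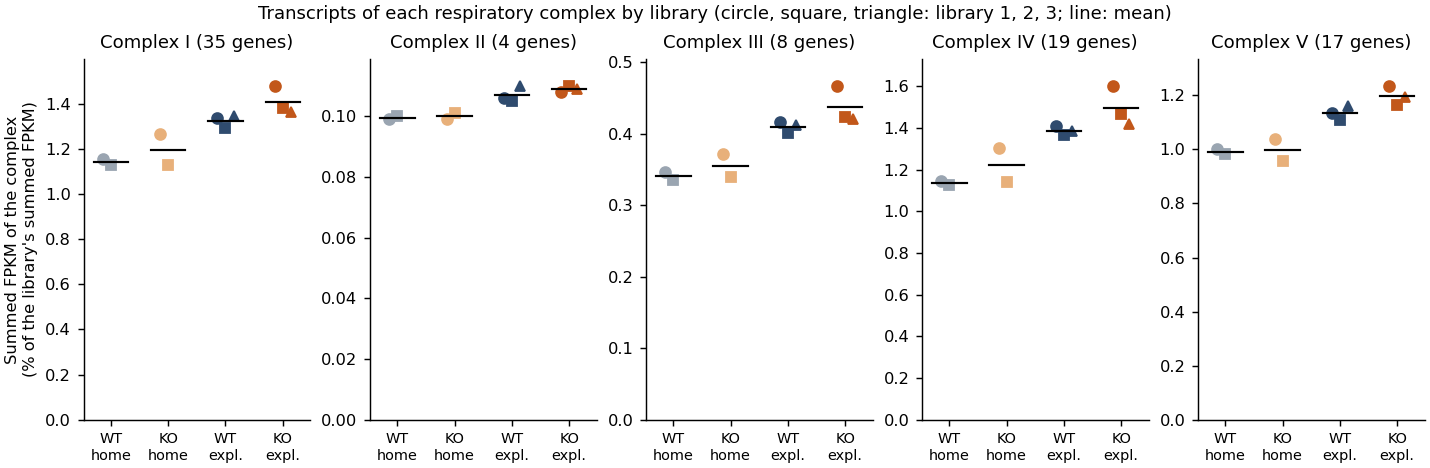
Summed FPKM of each complex as a percentage of the library's summed FPKM, by group (WT and KO stand for the labels; expl. is spatial exploration), with 1 point per library and the group mean as a line. Within each label the exploration libraries sit above the home cage libraries in every panel, and the first KO-labelled exploration library is the highest for complexes I, III, IV and V.

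Of the 83 genes, 76 were at or above 10 FPKM in all 10 libraries. The 7 others were the restricted isoforms of complex IV. Cox8a, the ubiquitous form of a small complex IV subunit, was the most abundant member with a mean of 1070 FPKM, followed by Cox6a1 at 694.7 FPKM and Ndufa4 at 682.8 FPKM. The highest members of the other complexes were Ndufb4 in complex I (357.9 FPKM), Sdhb in complex II (174.8 FPKM), Uqcr10 in complex III (318.8 FPKM) and Atp5b, the catalytic beta subunit, in complex V (612.2 FPKM). The lowest were Ndufa11 (39.16 FPKM), Sdhd (65.55 FPKM), Uqcrq (101.4 FPKM), Cox8b (0.082 FPKM) and Atp5s (14.32 FPKM). Complex subunits that occur in equal copies were thus not listed at equal levels: within complex I the members' means ran from 39.16 to 357.9 FPKM around a median of 139.5.

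The isoforms of complex IV known from muscle, lung, testis or hypoxic cells were at low levels in every group. Cox4i2, the lung and hypoxia form of subunit IV, made up 0.0579% to 0.19% of Cox4i1 plus Cox4i2. The muscle forms Cox6a2 and Cox7a1 made up 0.279% to 0.657% and 0.209% to 0.66% of their pairs with Cox6a1 and Cox7a2. Ndufa4l2, a hypoxia-induced paralog of Ndufa4, made up 0.115% to 0.237% of its pair. Cox8b, the muscle form of Cox8a, was listed at 0 in 8 of 10 libraries, and at 0.17 and 0.65 FPKM in the others. Cox4i2, Cox6b2 and Cox8b did not pass the filter of 1 FPKM in 2 libraries, so 80 members were tested. The c ring of ATP synthase is built from 1 mature protein that 3 genes encode, of whose sum Atp5g3 gave 44.7% to 49.7%, Atp5g1 25.8% to 32.2% and Atp5g2 20% to 25.6% across libraries. In KO-labelled mice the Atp5g1 share was 27.3% ± 2.1 in the home cage (SD, n = 2) and 31.2% ± 0.9 after exploration (SD, n = 3), and the Atp5g2 share 24.98% ± 0.81 and 21.46% ± 1.59. The WT-labelled shares moved the same way, from 28.7% ± 0.7 to 30.8% ± 1.2 for Atp5g1 and from 24.46% ± 0.95 to 23.36% ± 0.65 for Atp5g2.

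Exploration was then compared with the home cage among WT-labelled mice. Of the 80 tested members, 18 rose and none fell (limma on log2(FPKM + 1), adjusted p under 0.05 over the 11892 genes tested), a share of 22.5% where 2.02% of all tested genes rose and 4.29% fell. The median log2 difference of the members was 0.27 against -0.02 for all tested genes, and 77 of 80 were positive (60 of 80 with trends in GC content and transcript length removed). In 72 members the 3 exploration libraries lay wholly above the 2 home cage libraries, a pattern met by 19.7% of all tested genes. Rises were called for 6 of 35 complex I genes, 1 of 4 complex II genes, 2 of 8 complex III genes, 6 of 16 tested complex IV genes and 3 of 17 complex V genes. The count rested on single libraries: it was 1 without the first and 0 without the second WT-labelled home cage library, 2, 7 and 5 without the first, the second and the third WT-labelled exploration library, and 30 without either KO-labelled home cage library. The median difference stayed between 0.249 and 0.301 when each of the 10 libraries was left out.

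Among KO-labelled mice, 44 of the 80 members rose with exploration and none fell (limma, adjusted p under 0.05), or 55% where 12.0% of all tested genes rose and 16.6% fell. The median log2 difference was 0.31 against -0.04 for all tested genes, and Atp5sl was the 1 member with a negative value (with trends in GC content and transcript length removed, 51 of 80 members were positive). The exploration libraries lay wholly above the home cage libraries in 56 members, against 22.2% of all tested genes. Rises were called for 16 of 35 genes of complex I, 2 of 4 of complex II, 5 of 8 of complex III, 10 of 16 of complex IV and 11 of 17 of complex V. Without the second KO-labelled home cage library 12 members were called, and Cox4i1, Cox5a, Cox7b, Uqcrfs1, Uqcrh, Ndufv1, Sdhc and Atp5l were among those that lost their call. Without the first KO-labelled exploration library, which held the highest value of all 10 libraries in 57 of the 80 tested members, 36 were called.

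**Figure D2:**
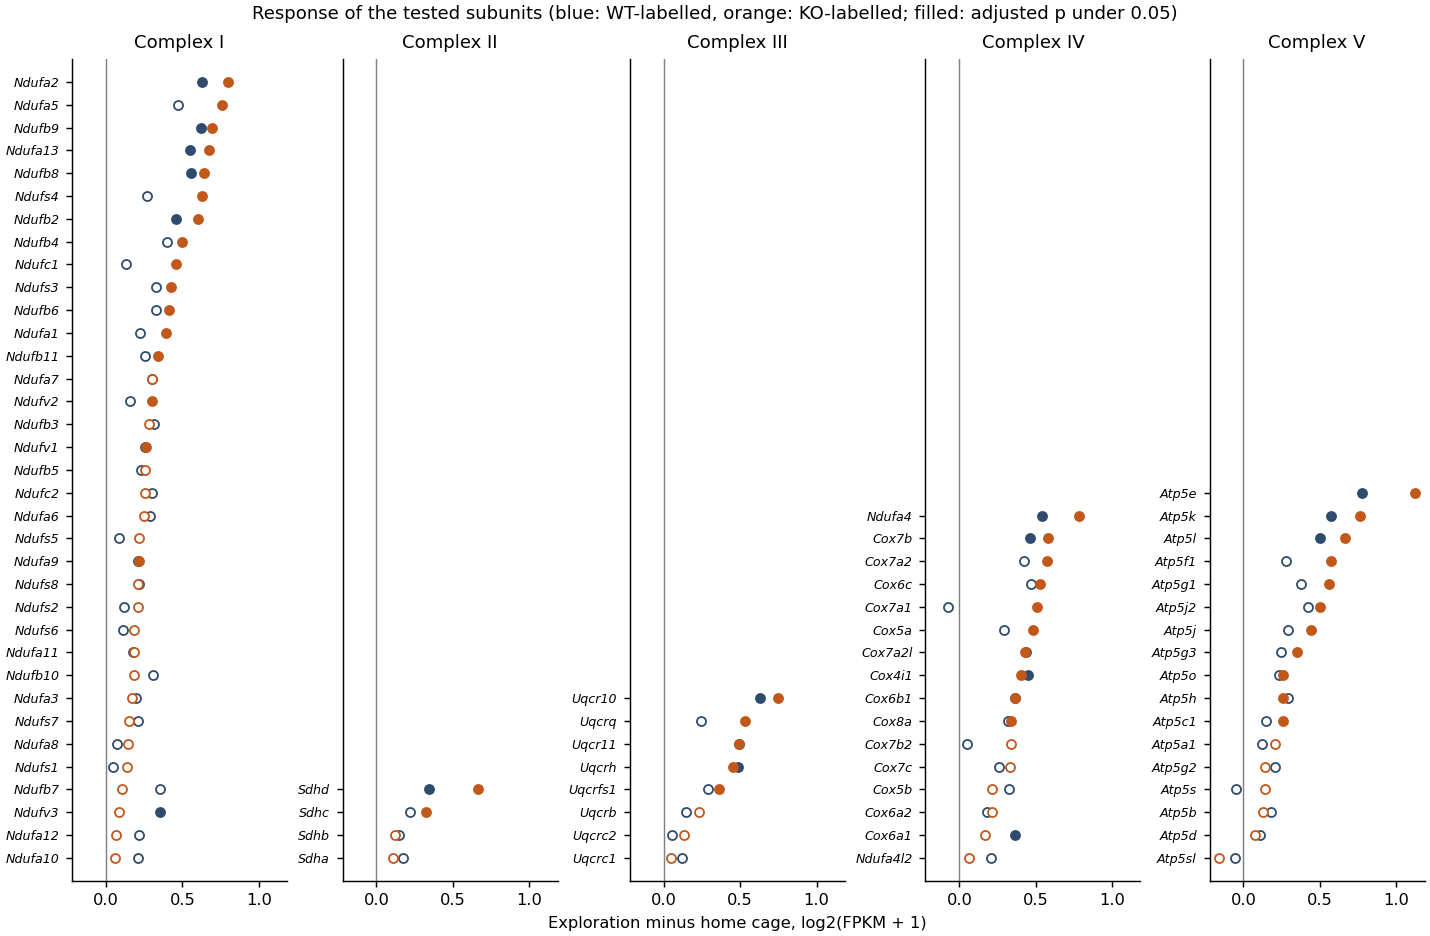
Difference between exploration and home cage on the log2(FPKM + 1) scale for each of the 80 tested members, by complex, ordered by the value in KO-labelled mice; filled points passed an adjusted p of 0.05 in limma. Most points lie right of 0, with Atp5e farthest right at 0.78 in WT-labelled and 1.12 in KO-labelled mice and Atp5sl at -0.05 and -0.16.

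Atp5e, the epsilon subunit of the F1 central stalk of ATP synthase, showed the largest rise in both comparisons. Its level was 129.3 and 128.5 FPKM in the WT-labelled home cage libraries and 221.3, 202.2 and 242.9 FPKM in the WT-labelled exploration libraries. In KO-labelled mice it was 158.6 and 108.2 FPKM in the home cage and 320.9, 268.4 and 271.7 FPKM after exploration. The groups did not overlap, and the log2 difference was 0.78 ± 0.14 in WT-labelled (SE, limma adjusted p = 0.00969) and 1.12 ± 0.14 in KO-labelled mice (SE, limma adjusted p = 0.00106). Atp5k and Atp5l, the e and g subunits of the membrane part of the enzyme, rose too, by 0.57 ± 0.13 and 0.50 ± 0.12 in WT-labelled and by 0.76 ± 0.13 and 0.67 ± 0.12 in KO-labelled mice (SE).

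The catalytic F1 subunits gave other values. Atp5b was listed at 587.4 and 524.1 FPKM in the WT-labelled home cage libraries and at 626.9, 649.5 and 608.6 FPKM after exploration. In KO-labelled mice the home cage values were 592.2 and 590.5 FPKM and the exploration values 626.7, 619.9 and 696.1 FPKM. The groups did not overlap, yet the log2 differences of 0.18 ± 0.09 and 0.13 ± 0.09 (SE) did not pass the test (limma adjusted p = 0.246 and 0.283). Atp5a1, the alpha subunit, likewise gave 0.12 ± 0.09 and 0.21 ± 0.09 (SE, limma adjusted p = 0.439 and 0.0998). Of the c ring genes, Atp5g1 and Atp5g3 rose in KO-labelled mice by 0.56 ± 0.11 and 0.35 ± 0.10 (SE), while Atp5g2 gave 0.14 ± 0.08 (limma adjusted p = 0.199). Atp5g3 gave 0.08 with GC content and length trends removed (limma adjusted p = 0.46), and its call was also lost with quantile normalization, with only the groups compared and without the second KO-labelled home cage library (limma adjusted p = 0.117, 0.0883 and 0.174). Without that library Atp5g1 missed the threshold too (limma adjusted p = 0.0585). In WT-labelled mice the c ring genes gave 0.37, 0.21 and 0.24 in the order of their numbers, none past the threshold (limma adjusted p = 0.0594, 0.146 and 0.151). The peripheral stalk genes Atp5f1, Atp5h, Atp5j and Atp5o rose in KO-labelled mice, by 0.57, 0.26, 0.44 and 0.26. In WT-labelled mice they gave 0.28, 0.29, 0.29 and 0.23, with no overlap between the groups and limma adjusted p of 0.0873, 0.072, 0.176 and 0.128, and the difference in response passed for none of them. With trends in GC content and length removed, Atp5f1 kept its call in KO-labelled mice at 0.44, while Atp5h, Atp5j and Atp5o gave -0.03, 0.24 and 0.05.

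In complex I, the leading members were small accessory subunits. Ndufa2, an accessory subunit of the NADH-binding module, was listed at 69.0 and 71.0 FPKM in WT-labelled home cage mice and at 109.9, 97.7 and 120.3 FPKM after exploration. The KO-labelled values were 81.3 and 57.2 FPKM in the home cage and 131.9, 110.8 and 115.6 FPKM after exploration. Both differences were rises, 0.63 ± 0.14 and 0.80 ± 0.14 (SE), with limma adjusted p = 0.0205 and 0.00266. Ndufb9, Ndufb8 and Ndufa13, which belong to the membrane arm, rose by 0.62, 0.56 and 0.55 in WT-labelled and by 0.69, 0.64 and 0.67 in KO-labelled mice. Ndufa5 rose by 0.76 ± 0.14 in KO-labelled mice (SE, limma adjusted p = 0.00356), and its value of 0.47 ± 0.14 in WT-labelled mice missed the threshold (limma adjusted p = 0.0663). In WT-labelled mice the 3 core subunits of the NADH-binding module had a median difference of 0.16 and its 7 accessory subunits 0.29. For KO-labelled mice the medians were 0.26 and 0.25. Rises were called for 0 of 3 and 2 of 7 in WT-labelled mice, where 2.02% of all tested genes rose. The KO-labelled counts were 2 of 3 and 2 of 7, where 12.0% of all tested genes rose. Ndufs1, which carries iron-sulfur clusters, was listed at 55.0 and 52.8 FPKM in WT-labelled home cage mice and at 56.0, 56.2 and 55.1 FPKM after exploration. Its KO-labelled values were 49.4 and 55.1 FPKM in the home cage and 58.5, 59.4 and 54.8 FPKM after exploration, so that these groups overlapped. The log2 differences of 0.05 ± 0.07 and 0.14 ± 0.07 (SE) did not pass the test (limma adjusted p = 0.734 and 0.17). Ndufv1, which binds NADH, gave nearly the same size in both labels, 0.25 ± 0.08 and 0.26 ± 0.08 (SE), and was called in KO-labelled mice alone (limma adjusted p = 0.0684 and 0.0254).

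In complex II, rises were called for the membrane anchor alone. Sdhd, a membrane anchor subunit, was listed at 53.1 and 52.8 FPKM in WT-labelled home cage mice and at 67.8, 67.0 and 67.9 FPKM after exploration. The KO-labelled values were 53.7 and 48.5 FPKM in the home cage and 86.6, 78.4 and 79.8 FPKM after exploration. It rose by 0.34 ± 0.07 in WT-labelled and by 0.67 ± 0.07 in KO-labelled mice (SE, limma adjusted p = 0.019 and 0.00073). Sdhc, the other anchor, rose in KO-labelled mice by 0.33 ± 0.08 (SE, limma adjusted p = 0.00959). Sdha, the flavoprotein that oxidises succinate, was listed at 104.7 and 102.1 FPKM in WT-labelled home cage mice and at 118.9, 118.1 and 113.8 FPKM after exploration, and in KO-labelled mice at 102.9 and 112.6 FPKM before and 109.9, 118.9 and 120.0 FPKM after. Neither Sdha (0.18 ± 0.07 and 0.11 ± 0.07, SE) nor the iron-sulfur subunit Sdhb (0.15 ± 0.09 and 0.12 ± 0.09, SE) was called in either label.

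Within complex III, Uqcr10, a small accessory subunit, was listed at 224.6 and 245.9 FPKM in WT-labelled home cage mice and at 377.4, 338.8 and 376.2 FPKM after exploration. In KO-labelled mice it was at 262.4 and 200.1 FPKM in the home cage and at 428.3, 357.9 and 375.9 FPKM after exploration. The rises were 0.63 ± 0.12 and 0.75 ± 0.12 (SE), at limma adjusted p = 0.0117 and 0.00209. Uqcrh, the hinge protein, rose by 0.49 and 0.46. Uqcrfs1, the Rieske iron-sulfur protein that passes electrons on, rose in KO-labelled mice by 0.36 ± 0.08 (SE, limma adjusted p = 0.00937) and gave 0.29 ± 0.08 in WT-labelled mice (limma adjusted p = 0.0607). The core protein Uqcrc1 was listed between 128.4 and 153.5 FPKM in all 10 libraries, with differences of 0.12 ± 0.07 and 0.05 ± 0.07 (SE) that did not pass.

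In complex IV, Ndufa4 was listed at 520.0 and 494.4 FPKM in WT-labelled home cage mice and at 747.1, 702.5 and 761.3 FPKM after exploration. The KO-labelled values were 563.8 and 442.2 FPKM in the home cage and 998.5, 818.7 and 779.6 FPKM after exploration. Its log2 value rose by 0.54 ± 0.12 and by 0.78 ± 0.12 (SE; limma adjusted p = 0.0274 and 0.00211). Cox4i1, the subunit through which ATP regulates the enzyme, was at 429.1 and 411.0 FPKM in WT-labelled home cage mice and at 593.4, 568.4 and 560.1 FPKM after exploration, and in KO-labelled mice at 522.2 and 444.7 FPKM before and 690.3, 625.9 and 603.3 FPKM after. Here the rises were of 0.45 ± 0.09 and 0.41 ± 0.09 (SE; limma adjusted p = 0.0172 and 0.00936). Cox7b rose in both labels by 0.46 and 0.58, and Cox5a rose in KO-labelled mice by 0.48 ± 0.11 (SE; 0.29 ± 0.11 in WT-labelled mice, limma adjusted p = 0.14). Of the restricted isoforms, Cox7a1 was called in KO-labelled mice at 0.51 ± 0.16 (SE, limma adjusted p = 0.0379), from 0.65 and 0.66 FPKM in the home cage to 1.3, 1.12 and 1.66 FPKM after exploration. At such levels few fragments stand behind each value, and that call was lost without either KO-labelled home cage library (limma adjusted p = 0.0964 and 0.181) and without the first or the third KO-labelled exploration library (limma adjusted p = 0.0618 and 0.094).

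**Figure D3:**
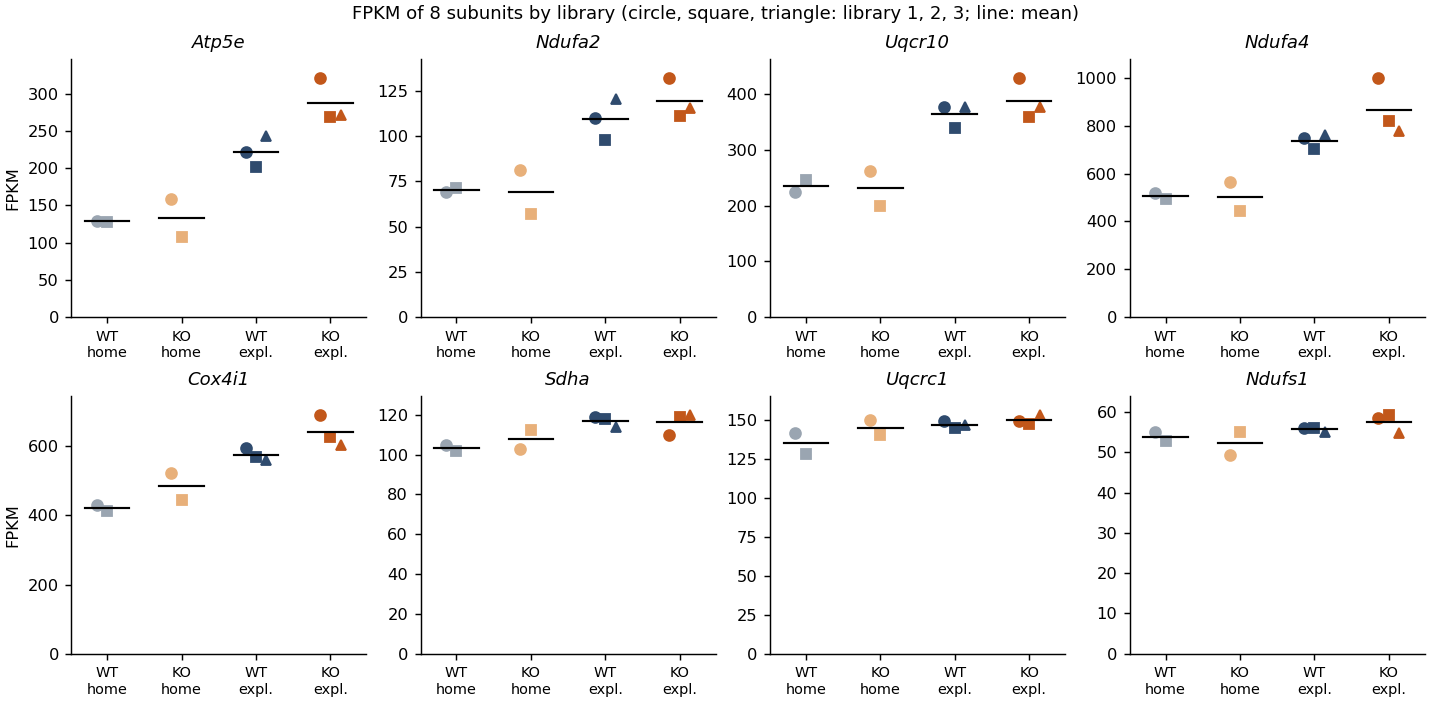
FPKM of 8 members in each library, by group (WT and KO stand for the labels; expl. is spatial exploration), with the group mean as a line and all axes from 0. Atp5e, Ndufa2, Uqcr10, Ndufa4 and Cox4i1 are higher in all exploration libraries than in all home cage libraries, while the group means of Uqcrc1 and Ndufs1 lie close together.

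The calls were shared unevenly. In all, 16 members rose in both labels, which is 88.9% of those called in WT-labelled and 36.4% of those called in KO-labelled mice. Of all tested genes, 2.02% rose in WT-labelled and 12.0% in KO-labelled mice. How many of these rose in both was not counted, so the sharing cannot be called particular to the members. They were Atp5e, Atp5k, Atp5l, Cox4i1, Cox6b1, Cox7a2l, Cox7b, Ndufa13, Ndufa2, Ndufa4, Ndufb2, Ndufb8, Ndufb9, Sdhd, Uqcr10 and Uqcrh. Ndufv3 and Cox6a1 passed in WT-labelled mice alone and 28 members in KO-labelled mice alone. Which label had more calls depended on the fit. With only the groups compared, 50 members were called in WT-labelled and 25 in KO-labelled mice, the reverse of the order above. The difference between the 2 responses was itself tested, and it passed for none of the 80 members (limma, 4 at an unadjusted p under 0.05), where 0.875% of all tested genes passed. Its median was 0.07 against 0.00 for all tested genes, and it was -0.064 without the second KO-labelled home cage library. For Atp5e the difference was 0.34 (95% interval -0.09 to 0.78), and for Cox4i1 it was -0.04 (-0.33 to 0.24).

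Promoter stretches are shown for 4 of the members with the largest mean rise over both labels and for Uqcrc1, whose differences were among the smallest. Ndufa2, with rises of 0.63 and 0.80, was also among the largest and is not shown. Each stretch is the 120 bases before the annotated transcription start, 5′ to 3′ on the gene's own strand, from RefSeq on GRCm38.p6. They lie at chr2:174464102-174464221 (minus strand), chr11:4704345-4704464 (minus), chr5:108434400-108434519 (minus), chr6:11907451-11907570 (minus) and chr9:108936528-108936647 (plus). Capitals mark letters that match a searched motif on either strand: CCGGAAG of the ETS factor GABP in Atp5e, CCAAT in Atp5e and Uqcr10, and the palindromic NRF1 site, searched as GCGCATGCG, in Atp5k, where it matches on both strands in overlap.
Atp5e: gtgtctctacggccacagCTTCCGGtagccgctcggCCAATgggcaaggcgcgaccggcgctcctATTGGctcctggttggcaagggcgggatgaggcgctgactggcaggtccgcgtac
Uqcr10: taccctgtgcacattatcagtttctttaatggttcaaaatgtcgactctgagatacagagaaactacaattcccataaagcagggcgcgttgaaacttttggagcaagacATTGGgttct
Atp5k: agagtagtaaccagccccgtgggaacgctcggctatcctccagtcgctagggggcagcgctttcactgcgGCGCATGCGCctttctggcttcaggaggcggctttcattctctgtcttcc
Ndufa4: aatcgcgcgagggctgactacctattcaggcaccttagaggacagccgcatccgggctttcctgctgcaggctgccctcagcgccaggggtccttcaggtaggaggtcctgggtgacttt
Uqcrc1: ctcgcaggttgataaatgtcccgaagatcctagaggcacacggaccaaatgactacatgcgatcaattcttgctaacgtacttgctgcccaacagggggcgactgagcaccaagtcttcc
None of the searched letters is in the shown stretch of Ndufa4 or Uqcrc1, though the longer window read next holds the NRF1 letters in Uqcrc1 and the GABP letters in Atp5k outside the stretches shown.

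NRF1, GABP and YY1 are known regulators of respiratory chain genes. Over windows of 250 bases before to 50 after each start, 69 of the 83 members had an entry (75 windows). GCGCATGCG was found in 10.7% of the members' windows and in 1.75% of all 32851 windows. The GABP letters CCGGAAG were in 21.3% against 8.86%, and the YY1 letters AAGATGGCG in 12% against 1.4%. CCAAT was in 42.7% against 37.4%, and TATAAA in 10.7% against 13.6%. Letters of the ERR element, TCAAGGTCA, were in 2.67% against 0.423%. Of all 80 tested members, 16 were called in both labels. Among them were 2 of 8 members with the NRF1 letters, 6 of 16 with the GABP letters and 0 of 8 with the YY1 letters. The counts were 8 of 31 for CCAAT, 1 of 7 for TATAAA and 1 of 2 for the ERR letters. Cox6b2 is among the 31 and Cox8b among the 7, and neither was tested. These counts are small, and differences between them were not tested. A match is a description of the letters and not of binding.

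The responses were also read by the role of the subunit. Among the 14 core or catalytic members, 0 were called in WT-labelled mice and 4 in KO-labelled mice (limma), with median log2 differences of 0.17 and 0.18. Among the 60 other subunits, 18 and 39 rose, with medians of 0.31 and 0.38. The shares of all tested genes that rose were 2.02% and 12.0%. With 14 core members and a share of 2.02%, a count of 0 does not set them apart from all tested genes. The 2 classes also differ in length: the median transcript was 1638 nt for the core members and 670 nt for the others. Over all 11781 tested genes with a length, the log2 difference fell with transcript length, with Spearman's rho of -0.49 in WT-labelled and -0.40 in KO-labelled mice. Over the 80 members rho was -0.31 and -0.34. These are correlations across genes that share the same libraries, so genes are not independent replicates. Members under 600 nt had medians of 0.30 and 0.39. The 58 other genes of that length with a mean of at least 50 FPKM had medians of 0.45 and 0.46, and 48.3% and 62.1% of them rose, against 8 and 14 of the 25 members. Members of 1000 to 2000 nt had medians of 0.24 and 0.26, and the 544 other genes of that length and level 0.14 and 0.18.

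**Figure D4:**
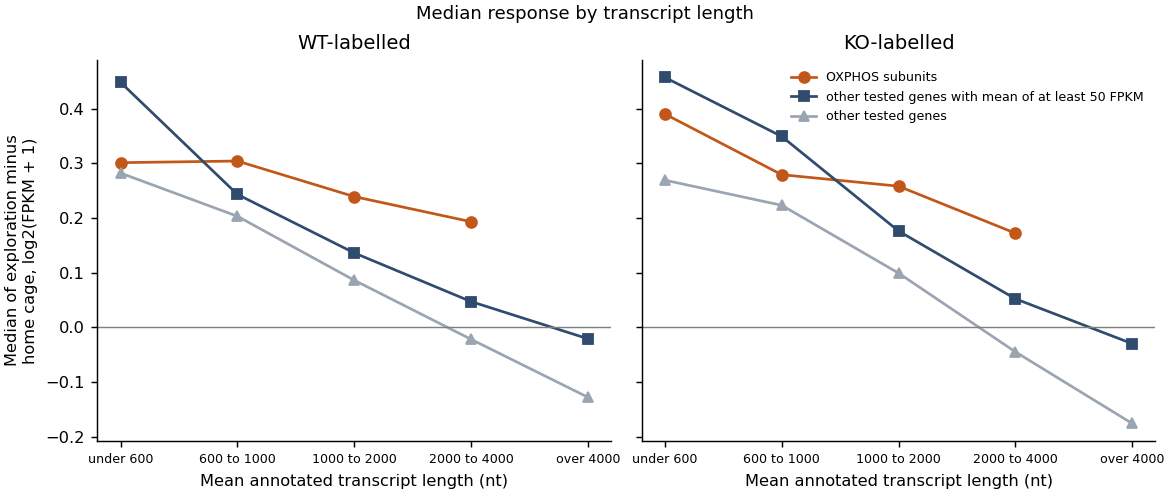
Median difference between exploration and home cage on the log2(FPKM + 1) scale by mean annotated transcript length, for the members (circles), for other tested genes with a mean of at least 50 FPKM (squares) and for all other tested genes (triangles). The 2 lines of other genes descend to the right; under 600 nt the members lie below the other abundant genes, and from 1000 nt upward they lie above them.

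With the trends in GC content and length removed from each library, the members' median log2 difference was 0.08 in WT-labelled mice (all tested genes -0.01) and 0.08 in KO-labelled mice (all tested genes -0.03). In WT-labelled mice 9 members were then called, all of them higher, where 1.34% of all tested genes were called higher and 2.96% lower. In KO-labelled mice 25 were called higher, where 10.5% of all tested genes were, and 2 lower, where 13.5% were. The 2 were Ndufa12 and Atp5sl, at -0.24 and -0.20, and Ndufa12 had been at 0.07 before the trends were removed. Of 80 members, 60 were then positive in WT-labelled and 51 in KO-labelled mice. These 9 rose in both labels under that setting: Atp5e, Cox7b, Ndufa13, Ndufa2, Ndufa4, Ndufb8, Ndufb9, Sdhd and Uqcr10. Atp5e then gave 0.44 ± 0.08 and 0.81 ± 0.08, Ndufa4 0.29 ± 0.06 and 0.41 ± 0.06, and Sdhd 0.21 ± 0.05 and 0.48 ± 0.05 (SE). The calls of Cox5a, Uqcrfs1 and Uqcrh in KO-labelled mice were lost (0.18, 0.19 and 0.14; limma adjusted p = 0.0998, 0.0512 and 0.152). The medians of the core members became 0.05 and 0.07 and those of the other subunits 0.11 in both labels.

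Genotype was compared within each environment and averaged over both. Under limma, no member passed in the home cage (3 at an unadjusted p under 0.05), after exploration (10) or averaged (12), where 3.57%, 0.597% and 2.13% of all tested genes passed. The members' median log2 difference, KO-labelled minus WT-labelled, was 0.06 in the home cage, 0.12 after exploration and 0.09 averaged, against -0.02, -0.01 and -0.01 for all tested genes. Positive values were found for 53 of 80 members in the home cage and for 73 of 80 after exploration. The KO-labelled libraries lay wholly above the WT-labelled ones in 14 members in the home cage, where 21.0% of all tested genes did so, and in 26 after exploration, where 11.4% did. Cox4i1 was among the members whose KO-labelled libraries lay wholly higher in both environments, at 0.20 ± 0.10 and 0.15 ± 0.08 (SE, limma adjusted p = 0.329 and 0.358). For Sdha, the differences were 0.06 (95% interval -0.11 to 0.23) and -0.01 (-0.15 to 0.13).

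The spread between libraries was wider within the KO-labelled groups, while the fit pooled the spread of all 4 groups. The first KO-labelled home cage library was above the second in 71 of the 80 tested members, and the median coefficient of variation of a member was 11.4% in that group, against 3.62% in WT-labelled home cage mice, 4.5% in WT-labelled and 7.51% in KO-labelled exploration mice. When each library was left out, the home cage median ran from -0.044 to 0.163, the exploration median from 0.065 to 0.142 and the averaged median from 0.034 to 0.143. Without the first KO-labelled home cage library Ndufa5 was called lower in the home cage at -0.39 ± 0.09 (SE, limma adjusted p = 0.043), and its difference in response passed at 0.60 ± 0.11 (SE, limma adjusted p = 0.0199).

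Genes that work with the subunits were read from lists. Beside their counts stand the 2.02% of all tested genes that rose in WT-labelled and the 12.0% that rose in KO-labelled mice. Of 46 tested assembly factors, which build the complexes, 2 rose in WT-labelled mice and 18 in KO-labelled mice. The largest rises were those of Sdhaf4, a complex II factor (0.54 ± 0.14, SE, limma adjusted p = 0.0414), in WT-labelled mice and of Pet100, a complex IV factor (0.87 ± 0.16, SE, limma adjusted p = 0.0032), in KO-labelled mice. Of 18 electron carriers and exchangers, 0 and 7 rose, led by cytochrome c (Cycs) at 0.53 ± 0.10 in KO-labelled mice (SE, limma adjusted p = 0.00403). Of 16 tricarboxylic acid cycle enzymes, 0 and 5 rose, led by Sucla2 at 0.49 ± 0.09 (SE, limma adjusted p = 0.00392). Of 16 glycolytic enzymes 1 and 2 rose, Aldoc by 0.51 in WT-labelled and Ldhb by 0.42 in KO-labelled mice with the larger values. Aldoc, which astrocytes express, was also higher in KO-labelled mice in the home cage (0.70) and averaged (0.42).

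The 15 tested regulators of mitochondrial biogenesis gave few rises: 2 fell in WT-labelled mice, and 1 rose and 3 fell in KO-labelled mice. Of all tested genes, 2.02% rose and 4.29% fell in WT-labelled mice, and 12.0% rose and 16.6% fell in KO-labelled mice. Gabpb2, a partner subunit of GABP, fell by 0.78 ± 0.13 and by 0.61 ± 0.13 (SE, limma adjusted p = 0.00555 and 0.00644). Its level was 1.34 to 2.24 FPKM in the home cage and 0.48 to 0.93 FPKM after exploration, so few fragments stand behind each value. Gabpb1 fell in both labels as well. Esrra, an orphan nuclear receptor, was the 1 riser, at 0.64 ± 0.10 in KO-labelled mice (SE, limma adjusted p = 0.00225). Of 76 mitochondrial ribosomal protein genes 4 rose in WT-labelled mice, and 25 rose and 2 fell in KO-labelled mice, with medians of 0.15 and 0.23. The 81 tested cytosolic ribosomal protein genes, which are also short and abundant, had 53 and 57 rises (1 fell in KO-labelled mice) and medians of 0.44 and 0.41, above the members' 0.27 and 0.31.

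Cell type markers moved with the environment too, and their part in the subunit results was not tested. With exploration, 2.02% of all tested genes rose and 4.29% fell in WT-labelled mice, and 12.0% rose and 16.6% fell in KO-labelled mice. In WT-labelled mice 5 of 9 oligodendrocyte, 4 of 9 microglial, 3 of 9 astrocyte and 3 of 4 blood markers rose with exploration, and 1 of 10 interneuron markers. The summed oligodendrocyte FPKM ran from 146.4 to 174.2 in the WT-labelled home cage and from 209.6 to 383.3 after exploration. The microglial sum ran from 63.5 to 70.6 and from 81.4 to 98.2 FPKM. For astrocytes it ran from 112.5 to 123.2 and from 131.6 to 171.4 FPKM. The blood sum ran from 94.8 to 154.1 and from 227.6 to 308.1 FPKM, and the interneuron sum from 1786 to 1899 and from 2016 to 2393 FPKM. Most of the interneuron sum was Cck alone. Cck was at 1657 and 1569 FPKM in the WT-labelled home cage libraries and at 1653, 1673 and 2086 FPKM after exploration. In KO-labelled mice 6 of 8 CA1 markers fell and 1 rose, and of 5 tested CA2, CA3 and dentate markers 3 rose and 1 fell. There, 3 of 10 interneuron markers also rose, with 1 of 9 astrocyte, 1 of 4 blood and 1 of 2 choroid plexus markers, and none of 9 oligodendrocyte, 9 microglial and 6 endothelial markers passed. The summed CA1 FPKM ran from 946.8 to 972.2 in the KO-labelled home cage and from 781.8 to 834.6 after exploration, and the CA2, CA3 and dentate sum from 176.4 to 197.7 and from 214.4 to 328.5 FPKM. Choroid plexus markers summed to 17.9 and 236.9 FPKM in the 2 WT-labelled home cage libraries and to 9.5 and 14.3 FPKM in the KO-labelled ones. Between the labels in the home cage, where 3.57% of all tested genes passed, 2 of 9 astrocyte, 2 of 9 microglial and 1 of 6 endothelial markers were higher in KO-labelled mice. Of the 8 CA1 markers, Mpped1 and Dcn were higher and Wfs1 lower there (0.41, 2.87 and -1.17), and 1 of 2 choroid plexus markers was lower. The 2 KO-labelled libraries lay far apart for Dcn, at 2.82 and 27.24 FPKM, against 0.2 and 0.69 FPKM in the WT-labelled ones.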

How the data were processed

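RNA from laser-dissected CA1 was read on a BGISEQ sequencer, in pairs of 100 bp, per the labels. The authors deposited FPKM per gene and library in 2 tables (18257 genes for the home cage, 19156 for exploration). The submitters' processing notes name HISAT, StringTie, GATK, Bowtie2, RSEM, GRCm38 and mm10, with no roles. The use of strand, the handling of reads shared with pseudogenes, of which small respiratory subunits have many, and whether the tables were normalized together are not given in the sources used here. The 6 learning condition samples were not analysed here.

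The tables were joined on gene ID. log2(FPKM + 1) was fitted with limma 3.58.1 in R 4.3.3 over all 10 libraries, with 1 mean per group, a variance trend and a filter of at least 1 FPKM in 2 libraries (11892 genes, 6 residual and 5.71 prior degrees of freedom). Benjamini-Hochberg adjustment ran over all tested genes, and genes were called at an adjusted p under 0.05. The scale understates changes of low genes. The spacing of low values gave the depth estimate, with an offset of 100 nt on GENCODE lengths. The method was tested on simulated data. Mean transcript lengths and GC content came from GENCODE on GRCm38, and 98.5% of genes had them.

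The members and all gene lists were chosen with earlier results of these data known. Named genes were 19 fixed members, up to 8 called members with the largest changes per comparison, the highest and lowest member of each complex, and from other lists the called gene with the largest rise and fall. Cox6a1, Ndufa12, Sdhc, Atp5f1, Atp5h, Atp5j, Atp5o, Uqcrh, Cox7b, Ndufv3, Ndufs4, Atp5l, Gabpb1 and the rest of the members called in both labels were named after their values were seen. The markers Calb1, Bok and Amigo2 were also named after their values were seen. Replicate numbers only name libraries.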

Additional observations from a re-analysis of the deposited data

Results flagged for a closer look

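Ndufs4, an accessory subunit of the NADH-binding module of complex I, had opposite genotype directions in the 2 environments. Its log2 difference, KO-labelled minus WT-labelled, was -0.118 in the home cage, where the libraries were at 37.2 and 39.4 FPKM (WT-labelled) and 36.8 and 33.7 FPKM (KO-labelled), and 0.241 after exploration, where they were at 45.9, 44.2 and 49.1 FPKM against 60.3, 54.4 and 50.6 FPKM. The groups did not overlap in either environment. The restricted isoform Cox7a1 did the same at levels near 1 FPKM, with -0.209 in the home cage and 0.372 after exploration. The rule behind both entries does not test the difference; in limma the difference in response did not pass for either (0.36 ± 0.12 and 0.58 ± 0.23, SE, adjusted p = 0.17 and 0.233).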

How the results depend on the processing

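In WT-labelled mice the 18 called members became 7 with no filter on low values, 11 with quantile normalization, 9 with GC content and length trends removed and 50 with only the groups compared, and 0 to 30 when single libraries were left out. The median of 0.273 became 0.129 with quantile normalization and 0.076 with the trends removed. In KO-labelled mice the 44 became 27 with the trends removed, 25 with only the groups compared and 12 to 52 with single libraries left out, and the median of 0.314 became 0.172 with quantile normalization and 0.080 with the trends removed. Single libraries left out gave 0 to 1 called members for the home cage genotype and for the difference in response, and medians of the latter from -0.064 to 0.168. With the trends removed 1 member passed for the averaged genotype, Ndufb9 at 0.17 (limma adjusted p = 0.0404). When FPKM were rescaled to sum to 1000000 per library, the exploration to home cage ratio of the members' sum went from 1.256 to 1.176 in WT-labelled mice, and by complex to 1.159 (I), 1.077 (II), 1.201 (III), 1.221 (IV) and 1.145 (V). In KO-labelled mice complex II came to 1.095.

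With the trends removed, positive values went from 77 to 60 of 80 members in WT-labelled and from 79 to 51 in KO-labelled mice. Of the values of single tested members under the alternatives, 8564 kept their side of the threshold, 257 lost and 97 gained a call. Only the 18 members called in WT-labelled and the 44 in KO-labelled mice could lose a call. Most of the 8564 were therefore values without a call in either fit, and that number does not measure how stable the calls were. A further 2 values that were called in one fit had the opposite sign in the other: in KO-labelled mice with the trends removed, Atp5h was at -0.030 and Ndufa12 at -0.236. The cause was not tested. The 8 members with the largest rises in KO-labelled mice stayed called under every alternative, while each call in WT-labelled mice was lost without the second WT-labelled home cage library. With 2 libraries per home cage group the precision is limited, and under 1 FPKM a value rests on few fragments. No paired analysis was possible because replicate numbers follow accession order and mark no shared animal or batch.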
